A study of Mus musculus with 3 samples.

Results

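Sbspon, Neb, Rgs5, Cdh13, Wfdc18 and Gm12524 are 6 genes of the 23271 in the merged single-cell table of mouse intestinal organoids. They were chosen by a measured value, the ratio of their summed unique molecular identifiers (UMIs) per library total between organoids grown with CHIR99021 and DAPT and conventional organoids, which exceeded 80, and were listed as unexpected in these cells. Their level in the other medium with CHIR99021 and the cells that carry them were not part of the choice. Small intestinal crypts came from C57BL/6 mice of both sexes, 3 to 6 months old, and all organoids were first expanded as an intestinal stem cell (ISC) enriched population in EGF, Noggin and R-spondin 1 (ENR) with 3 μM CHIR99021 and 1 mM valproic acid. For 6 days the cells then received ENR only (ENR), ENR with 3 μM CHIR99021 and 10 μM DAPT (ENR+CD, made to enrich Paneth cells, PCs), or stayed in ENR with CHIR99021 and valproic acid (ENR+CV, the ISC-enriched precursor). The conventional ENR cells had therefore also met CHIR99021 and valproic acid earlier. Each medium gave 1 Seq-Well library of pooled wells from 1 donor, so no value below has a replicate, no test between media was possible, and every interval covers counting error only.

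CHIR99021 inhibits the kinase GSK3, which otherwise marks β-catenin for destruction, so it raises Wnt target genes. In the crypt, Wnt signals keep stem cells dividing and are needed for PCs, while Notch signals between neighbouring cells hold back the secretory fates. DAPT blocks the γ-secretase that releases active Notch, and valproic acid inhibits histone deacetylases. The listed genes do different work. Sbspon encodes a secreted matrix protein with a somatomedin B and a thrombospondin type 1 domain, Neb the giant thin filament protein nebulin of skeletal muscle, and Rgs5 a GTPase-activating protein that shortens G protein signals and is widely used as a pericyte marker. Cdh13 encodes T-cadherin, which is held on the membrane by a lipid anchor and binds adiponectin. Wfdc18 encodes a small secreted protein of the whey acidic protein (WAP) family, and Gm12524 is a predicted long intergenic non-coding RNA with no function known here.

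After cells with fewer than 400 genes or with 8000 or more UMIs were left out, the libraries held 2545 ENR, 2383 ENR+CD and 985 ENR+CV cells, with 5095089, 4538388 and 2942252 UMIs. The median cell had 1553, 1543 and 2499 UMIs, and 1 UMI was worth 0.196, 0.2203 and 0.340 counts per 1000000 UMIs (CPM). The ENR+CV library was the deepest per cell and the shallowest in reads, at 10.2 reads per UMI against 15.3 in ENR and 18.3 in ENR+CD. Mitochondrial genes held 16.9% of the UMIs of a mean ENR cell, 8.76% in ENR+CD and 5.53% in ENR+CV, and the part of this in the differences below was not tested. Of the kept cells, 1 barcode was shared between ENR and ENR+CD and 0 between the other pairs. The per-sample tables of ENR+CD and ENR+CV were attached to each other's sample label, and the names in the merged table, which match the source names of the samples, were followed. In the cells so named, PC markers summed to 187056 CPM in ENR+CD, the medium made to enrich PCs, and to 6070 CPM in ENR+CV. With the attached labels in their place, every statement on ENR+CD below would be on ENR+CV and the reverse.

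All 6 genes were called higher in ENR+CD against ENR. A call needed 20 UMIs in the pair of libraries, a ratio of 2 or more, and 95% Poisson intervals that did not meet. Of the 12197 genes that met the UMI minimum, 10.8% were called higher and 9.35% lower, and since this contrast chose the genes, nothing is read from their count. In ENR+CV, Neb and Cdh13 were called higher than in ENR, Sbspon had 5 UMIs, Rgs5 and Gm12524 had 1 each and Wfdc18 had 0. Among all 11962 genes tested, 15.9% were called higher in ENR+CV and 5.8% lower. With 4 or fewer ENR UMIs each, a listed gene could only meet the minimum through ENR+CV, so the share of tested members that was called says nothing. As genes switched on with CHIR99021, the label of the choice, the other 4 were not seen in ENR+CV beyond 5 UMIs. The Cdh13 call rested on 17 UMIs and was lost under 4 alternatives, and both calls used the same few ENR UMIs as the contrast that chose the genes.

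**Figure D1:**
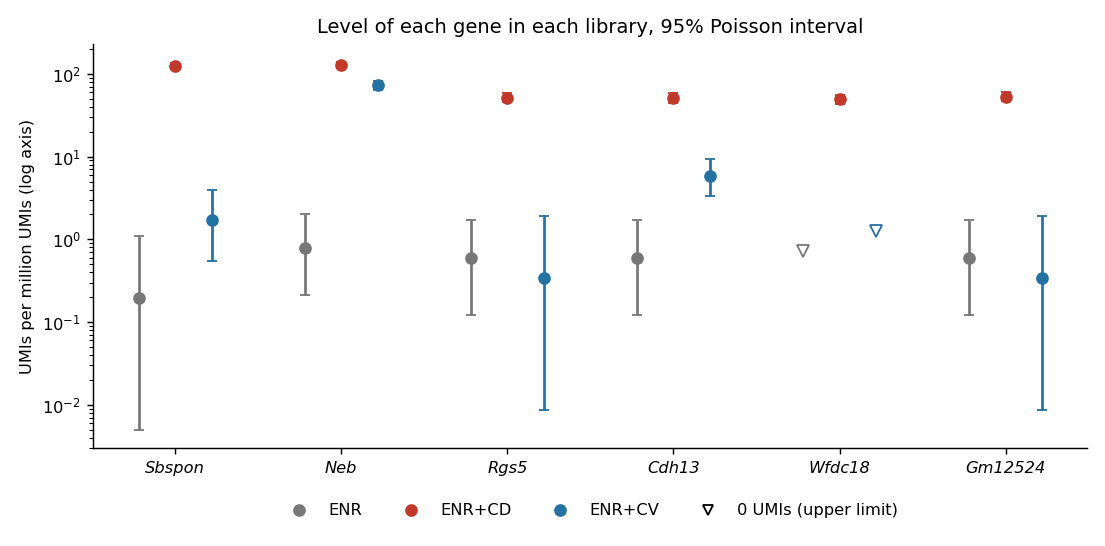
Level of each gene (CPM, log axis) in the ENR, ENR+CD and ENR+CV libraries, 1 point per library with its 95% Poisson interval and open triangles at the upper limit where no UMI was found. The ENR+CD points lie between 49.4 and 127 CPM, every ENR point is below 1 CPM, and among the ENR+CV points only Neb, at 72.7 CPM, comes near its ENR+CD level.

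Neb was the listed gene that both media with CHIR99021 shared. It had 4 UMIs in ENR (0.785 CPM, 95% Poisson interval 0.214 to 2.01), 577 in ENR+CD (127 CPM, 117 to 138) and 214 in ENR+CV (72.7 CPM, 63.3 to 83.2). The ENR level lay far below both, and the intervals of ENR+CD and ENR+CV did not meet. The Neb ratio was 162 for ENR+CD over ENR (exact binomial 95% interval 62.9 to 596) and 92.6 for ENR+CV over ENR (35.7 to 343). ENR+CD exceeded ENR+CV 1.75 times (1.49 to 2.05), under the 2-fold limit of a call. This value passed 2-fold when the 10 cells with most UMIs of the listed genes were left out of each library (2.35), when libraries were scaled by the median of gene ratios (2.32) and when PC genes were left out of the totals (2.15).

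Cells with Neb were a minority in both media with CHIR99021. Of 985 cells, 99 held Neb (10.1%, exact Clopper-Pearson 95% interval 8.24 to 12.1), 45 of them with 2 or more UMIs, and the highest cell had 10. The 10 highest cells held 31.3% of the Neb UMIs in ENR+CV and 14.2% in ENR+CD. They were 10 of 99 cells with Neb in ENR+CV but 10 of 354 in ENR+CD, so these shares cannot be set side by side. In ENR+CD, 354 of 2383 cells held Neb (14.9%, 13.5 to 16.3), 111 with 2 or more UMIs. After every cell was thinned to 1000 UMIs to remove depth, the shares were 9.61% in ENR+CD (8.46 to 10.9), 5.69% in ENR+CV (4.32 to 7.32) and 0.118% in ENR (0.0243 to 0.344).

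Cdh13 was the other gene with a call in ENR+CV, on far fewer UMIs. ENR held 3 Cdh13 UMIs (0.589 CPM, 0.121 to 1.72), ENR+CD 232 (51.1 CPM, 44.8 to 58.1) and ENR+CV 17 (5.78 CPM, 3.37 to 9.25). ENR+CV thus stood between the others, with intervals apart from both. The ratios were 86.8 for ENR+CD over ENR (29.3 to 424), 9.81 for ENR+CV over ENR (2.84 to 52.3) and 8.85 for ENR+CD over ENR+CV (5.41 to 15.5). The 17 UMIs lay in 15 cells, and the ENR+CV call was lost without the 10 cells with most UMIs of the listed genes, with cells of 2000 or more UMIs only, with entries of at least 2 reads per UMI, and at a minimum of 50 UMIs.

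Sbspon was near 0 outside ENR+CD. It had 1 UMI in ENR (0.196 CPM, 0.00497 to 1.09), 566 in ENR+CD (125 CPM, 115 to 135) and 5 in ENR+CV (1.70 CPM, 0.552 to 3.97). ENR and ENR+CV overlapped, and ENR+CD lay apart from both. The ratio was 635 over ENR (114 to 25142, against a single UMI) and 73.4 over ENR+CV (31.3 to 227). In ENR+CD 391 cells held Sbspon (16.4%, 14.9 to 18.0, and 10.995% after thinning), 117 of them with 2 or more UMIs and the highest with 9. The 5 UMIs of ENR+CV all lay in cells of ENR+CV cluster 3, described below, and came from 5 cells.

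Rgs5 was high in ENR+CD alone among the libraries. It had 3 UMIs in ENR (0.589 CPM, 0.121 to 1.72), 235 in ENR+CD (51.8 CPM, 45.4 to 58.8) and 1 in ENR+CV (0.340 CPM, 0.00860 to 1.89), so that ENR and ENR+CV overlapped. The ratios were 87.9 over ENR (29.7 to 430) and 152 over ENR+CV (27.1 to 6043). Of the ENR+CD cells, 148 held Rgs5 (6.21%, 5.27 to 7.26, and 4.07% after thinning), and 45 of these had 2 or more UMIs, up to 11 in a cell.

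Wfdc18 had no UMI in the kept cells of the other libraries. It had 0 in ENR and 0 in ENR+CV, which allow up to 0.589 and 1.02 CPM at 3 UMIs, and 224 in ENR+CD (49.4 CPM, 43.1 to 56.3). With 3 UMIs put in place of 0, the ratio was 83.8 over ENR and 48.4 over ENR+CV. The exact binomial lower limits, from the counts themselves, were 67.6 and 39.0. The UMIs lay in 160 cells (6.71%, 5.74 to 7.79, and 4.03% after thinning), 41 with 2 or more and 1 with 9.

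Gm12524 followed the same order with a different kind of count. It had 3 UMIs in ENR (0.589 CPM, 0.121 to 1.72), 242 in ENR+CD (53.3 CPM, 46.8 to 60.5) and 1 in ENR+CV (0.340 CPM, 0.00860 to 1.89). The ratios were 90.6 over ENR (30.6 to 442) and 157 over ENR+CV (27.9 to 6222). These UMIs lay in 232 ENR+CD cells (9.74%, 8.57 to 10.997, and 4.91% after thinning), of which only 10 had 2 UMIs and none more.

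Nearly all Gm12524 UMIs rested on a lone read. In ENR+CD 253 reads gave its 242 UMIs, or 1.05 reads per UMI, and 221 of 232 cell entries had 1 read. Sbspon had 27.0 reads per UMI, Neb 25.3, Rgs5 27.0, Cdh13 31.6 and Wfdc18 9.59, against a median of 23.7 over the 6038 genes of 100 or more UMIs in ENR+CD (quartiles 18.7 and 28.3). Only 125 of these genes (2.07%) had fewer than 2 reads per UMI, 24 of them fewer than Gm12524, and 79 had symbols of the predicted Gm type. Of the 125, 22 were called higher and 44 lower when ENR+CD was set against ENR. With entries of at least 2 reads per UMI only, Gm12524 fell under the minimum of 20 UMIs in every pair and was not tested. Its lone reads set this in advance. The other 5 genes stayed higher in ENR+CD than in ENR.

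**Figure D2:**
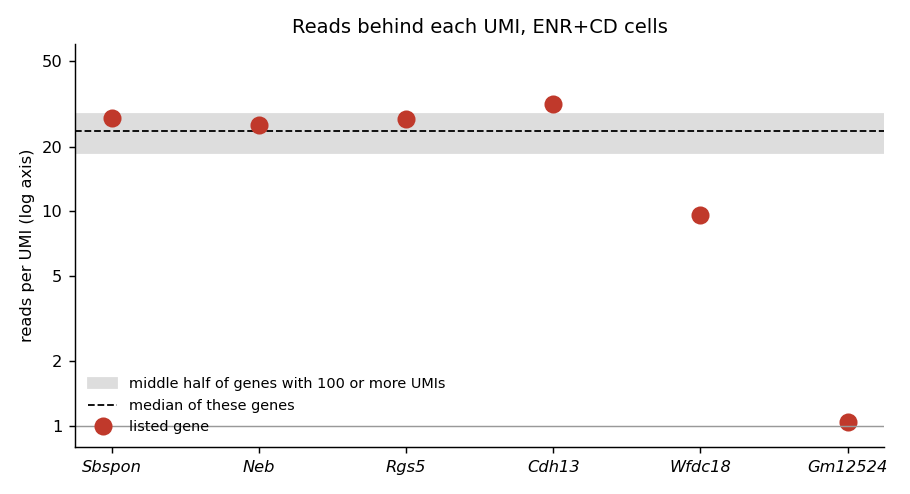
Reads per UMI (log axis) of each gene in ENR+CD cells, with the median and the middle quartiles of the 6038 genes of 100 or more UMIs as the dashed line and the grey band. Gm12524 sits at 1.05, next to the lowest possible value of 1, Wfdc18 at 9.59 lies under the band and the others lie in it or just above.

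All but Gm12524 are protein-coding on the GRCm38 build. Sbspon lies on chromosome 1 (15853862 to 15892722, minus strand), Neb on chromosome 2 (52136647 to 52378474, minus strand, 157 exons in its longest transcript) and Rgs5 on chromosome 1 (169655501 to 169695813, plus strand). Cdh13 lies on chromosome 8 (118283733 to 119324921, plus strand), Wfdc18 on chromosome 11 (83709015 to 83711348, plus strand) and Gm12524 on chromosome 3 (108166443 to 108185907, plus strand, 1 transcript of 2 exons and 1583 bases). None of them adjoins another. Whether reads were counted by strand is not given in the sources used here, so reads of Sbspon cannot be told apart from those of Gm37509, which shares 2002 bases with its transcript on the opposite strand and is not in the table. Neb and Cdh13 also overlap predicted genes on the opposite strand, of which Gm13522 and Gm24035 are in the table. Exact stretches of 30 or more bases shared with transcripts of other genes were sought for each listed gene, and Wfdc18 had none. In Gm12524 they were confined to the first 36 bases, a simple repeat shared with transcripts of 1076 other genes and printed below. This stretch is shorter than the transcript reads described in the paper. Where the reads of Gm12524 lay along its transcript was not tested. In Cdh13, transcripts of 3438 other genes shared up to 72 bases between bases 1384 and 1460, and in Rgs5 and Neb transcripts of 3 other genes each shared up to 41 and 45 bases.

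Gm12524, transcript bases 1 to 36: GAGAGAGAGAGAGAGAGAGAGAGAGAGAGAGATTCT

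RefSeq promoter windows (GRCm38.p6, 250 bases before to 50 after the start site) were at hand for Rgs5 and Wfdc18 of the 6 genes. They are shown because these genes ran alike over the clusters described below. The letters CTTTGA, the core bound by the TCF and LEF factors through which β-catenin acts, and TATAAA, the core of a TATA box, were searched on both strands, with no overlap between the matches, which stand in capitals. The Rgs5 window holds the TCF/LEF core on the reverse strand (TCAAAG), with its first base at -20 from the start site, and no TATAAA. The Wfdc18 window holds TATAAA with its first base at -31 and no TCF/LEF core. Of 32851 windows of 300 bases, 16% hold the first core and 13.6% the second, so either match is common.

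Rgs5, chr1:169655251-169655550, plus strand: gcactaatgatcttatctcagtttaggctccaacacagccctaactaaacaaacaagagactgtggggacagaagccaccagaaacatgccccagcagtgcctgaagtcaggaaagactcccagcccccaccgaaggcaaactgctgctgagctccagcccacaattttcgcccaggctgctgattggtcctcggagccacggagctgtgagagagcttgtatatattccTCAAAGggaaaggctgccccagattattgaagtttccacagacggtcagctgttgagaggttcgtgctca

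Wfdc18, chr11:83708754-83709053, plus strand: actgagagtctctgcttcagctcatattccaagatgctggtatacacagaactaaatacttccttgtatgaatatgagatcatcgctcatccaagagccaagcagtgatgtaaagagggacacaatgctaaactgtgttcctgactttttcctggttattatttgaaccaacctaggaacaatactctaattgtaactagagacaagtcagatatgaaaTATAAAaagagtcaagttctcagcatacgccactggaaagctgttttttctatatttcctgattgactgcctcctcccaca

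Of the nearest annotated genes of the table on each side, Arl5a was the only one called in ENR+CD against ENR. Beside Sbspon, Terf1 had 215 UMIs in ENR and 210 in ENR+CD, a ratio of 1.10 (0.902 to 1.33). Rif1, on the other side of Neb from Arl5a, had a ratio of 0.939 (0.824 to 1.07) for ENR+CD over ENR, while Arl5a, a small GTPase gene, was called higher in ENR+CD, 3.23 times (2.49 to 4.22), and in ENR+CV, 2.62 times (1.96 to 3.52). Rgs4, which lies 45664 bases from Rgs5, had 9, 6 and 5 UMIs in ENR, ENR+CD and ENR+CV. Wfdc17, the neighbour of Wfdc18 in the same family, had 0 UMIs in all 3 libraries.

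Relatives of the listed genes were counted from fixed lists. Of 19 regulators of G protein signalling in the table, 9 met the minimum in ENR+CD and ENR, and Rgs5, Rgs16, Rgs17 and Rgs19 were called higher and Rgs11 lower (median log2 ratio 0.45, against -0.01 over all genes tested). Rgs17 had 31, 82 and 27 UMIs (ENR, then ENR+CD, then ENR+CV), and its ratio in the first pair was 2.97 (1.94 to 4.65). In the WAP family Wfdc15b, with 13, 199 and 5 UMIs in the same order, was called higher in ENR+CD than in ENR at 17.2 times (9.82 to 32.8), and 2 of 3 tested members were called, Wfdc18 included (median log2 ratio 4.10). Among cadherins Cdh2, the neural cadherin, had 5, 97 and 10 UMIs and was called higher in ENR+CD at 21.8 times (9.02 to 68.6), while Cdh17, an intestinal cadherin, was called lower at a ratio of 0.357 (0.315 to 0.403), so that of 5 tested cadherins 2 were higher and 1 lower (median log2 ratio 1.01). Of 4 tested genes on the list of Sbspon relatives, Sbspon, Thbs1 and Rspo4 were higher, Enpp1 was not called and none was lower (median log2 ratio 3.28). Thbs1 had 173, 2709 and 217 UMIs and was called higher in ENR+CD at 17.6 times (15.1 to 20.6). Nebl, the nebulin relative nebulette, had 4, 29 and 7 UMIs, and was called higher in ENR+CD at 8.14 times (2.86 to 31.9), as 1 of 2 higher among 3 tested (median log2 ratio 3.02). Each of these counts and medians includes the listed gene itself, chosen on this contrast, and stands beside 10.8% of all tested genes called higher and 9.35% lower.

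Rgs5 marks pericytes and Neb skeletal muscle, so the other markers of these cells were read in each library. The 10 smooth muscle and pericyte markers summed to 22.6, 18.3 and 12.6 CPM in the ENR, ENR+CD and ENR+CV libraries. Des had 0 UMIs in ENR and ENR+CD, Cspg4 had 0 in ENR+CD, Pdgfrb had 4, 2 and 3, and Mcam, at 3 UMIs in ENR and 23 in ENR+CD, was called higher. Acta2, the other tested marker and the one with most UMIs of the list, had 90, 48 and 15 UMIs and was not called in ENR+CD against ENR. The 8 skeletal muscle markers summed to 61.8, 76.9 and 39.1 CPM. Acta1, which gave 299, 338 and 64 UMIs of these, had a ratio of 1.27 for ENR+CD over ENR (1.08 to 1.49) and was not called, and Myog, Myh1, Myh4 and Tnnt3 had 0 UMIs in ENR+CD. The 7 stroma and endothelium markers summed to 1.57, 2.20 and 5.10 CPM. In ENR+CD, where Rgs5 and Neb were highest, only Acta1, Acta2, Mcam and Ttn of the muscle and pericyte lists had more than 2 UMIs. Ttn had 9, 7 and 42 UMIs in ENR, ENR+CD and ENR+CV. In ENR+CV, which shares Neb, it was called higher than in ENR, 8.08 times (3.88 to 18.9), while Acta1 was called lower. No other skeletal muscle marker met the minimum in that pair.

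Wnt target genes give the setting in which CHIR99021 acted. Of 26 listed targets in the table, 22 met the minimum in ENR+CD and ENR, of which 10 were called higher and 2 lower, with a median log2 ratio of 0.77 against -0.01 over all genes tested. In ENR+CV against ENR 20 were tested, 8 called higher and 1 lower, with a median log2 ratio of 0.76 against 0.35. Notum, which inactivates Wnt ligands, had 3, 328 and 7 UMIs in the 3 libraries, so it was near 0 in ENR+CV, as Sbspon was. Lef1, a factor that binds β-catenin, had 1, 125 and 65 UMIs and Prox1 had 42, 851 and 329, so that both were also high in ENR+CV, as Neb was. Axin2, a common readout of Wnt signalling, was called higher in ENR+CV at 2.18 times (1.96 to 2.43) and not in ENR+CD, at 1.349 times (1.21 to 1.51).

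The limit of 80 that chose the genes cut through a run of ratios. Among genes of at least 100 UMIs, 16 had an ENR+CD over ENR ratio above 80 or no ENR UMI, and the 10 that are not listed included Wnt6, Ccl2, Cyp1b1, Dkk3, Ifitm1, A630023P12Rik, Lef1, Notum and Hdc. Just inside lay Cdh13 at 86.8 and Rgs5 at 87.9, and just outside Nkd1 at 66.8 and Clu at 52.7. Of the 10 not listed, Lef1 and Ifitm1 had 65 and 757 UMIs in ENR+CV, and Ccl2 and A630023P12Rik had 0.

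To see which cells carried the genes, all kept cells were clustered with the listed genes left out of the variable genes. There were 15 clusters, each named after its main library and numbered by rising share of PC markers. ENR+CD cells lay mainly in 5 of them. ENR+CD cluster 1 (92 ENR+CD cells) was enteroendocrine cell (EEC)-like, with Gcg, Neurod1 and Neurog3 among its leading genes. Clusters 2 (560 cells, led by Rdh10, Ifitm1 and Clu) and 3 (670 cells, led by Clu, Sct and Mptx2) were left unnamed. Clusters 4 (812 cells) and 5 (198 cells) were PC-like, with 26.0% and 47.4% of the UMIs of a mean cell on PC markers. Of the 10764 genes with 20 or more UMIs over these clusters, 43.1% differed at least 2-fold between the highest and the lowest cluster with separate intervals. Of the listed genes 5 did, all but Gm12524.

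Neb was highest in the EEC-like cells, where the other protein-coding genes listed were lowest. In the ENR+CD cells of clusters 1 to 5 it stood at 418, 90.4, 161, 93.8 and 32.4 CPM, with 117 UMIs in 37 of 92 cells of cluster 1 (40.2%, 30.1 to 51.0) and 15 UMIs in cluster 5. The ratio of the highest to the lowest cluster was 12.9 (7.50 to 23.8). Cluster 3, which had Sct and Scg2 among its leading genes, came next. The EEC-like cells of cluster 1 held 117 of the 577 UMIs, so most Neb UMIs lay elsewhere.

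The EEC-like cells of the other media separated Neb by medium. In ENR, 121 cells were EEC-like, 29 in ENR+CD cluster 1 and 92 in ENR cluster 5 (led by Afp, Ucn3 and Tph1), and they held 0 Neb UMIs of 252974, which allows a level of up to 11.9 CPM and a share of up to 2.48% of cells with a UMI. In ENR+CV only 16 cells were EEC-like, and 4 of these held 16 Neb UMIs, a level of 403 CPM (231 to 655). The ENR+CD level of 418 CPM (345 to 500) overlapped this. As point values, ENR+CD and ENR+CV stood 35.2 and 34.0 times over the ENR limit at 3 UMIs, which leaves out their own counting error. The 29 ENR cells of ENR+CD cluster 1 alone held 0 Neb UMIs of 78023. Their upper Poisson limit of 47.3 CPM lay below the lower limits of 345 and 231 CPM. After thinning, 22 of 92 ENR+CD cells (23.9%, 15.6 to 33.9), 4 of 16 ENR+CV cells and 0 of 121 ENR cells held Neb. Outside the EEC-like cells, Neb in ENR+CV stood at 31.4, 43.8, 102 and 70.9 CPM in ENR+CV clusters 1 to 4, where cluster 3 (83.9 to 124) lay apart from clusters 1 and 2 and overlapped cluster 4 (50.2 to 97.3).

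Sbspon, Rgs5, Cdh13 and Wfdc18 had another order over the clusters than Neb. In CPM of all UMIs, all 4 were highest in ENR+CD cluster 2 and lowest in the EEC-like cluster 1, whose intervals overlapped those of cluster 5. In clusters 1 to 5 Sbspon stood at 24.98, 219, 124, 112 and 30.2 CPM, and its cluster 2 (192 to 248) lay above all the others. Cdh13 stood at 7.14, 88.6, 52.2, 46.0 and 10.8 CPM, with cluster 2 (71.8 to 108) again apart from the rest. In Rgs5 the order was 3.57, 73.8, 70.5, 38.4 and 15.1 CPM, where clusters 2 and 3 overlapped and both lay above the PC-like clusters 4 and 5. Wfdc18 stood at 3.57, 73.8, 55.7, 47.7 and 13.0 CPM, and clusters 2, 3 and 4 overlapped each other. The ratio of cluster 2 to cluster 1 was 8.75 for Sbspon (4.18 to 22.0), 12.4 for Cdh13 (3.34 to 104), and 20.7 for both Rgs5 and Wfdc18 (3.61 to 827).

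Gm12524 did not differ between these clusters beyond counting error. It stood at 49.97, 60.9, 60.6, 46.0 and 38.9 CPM in clusters 1 to 5, all 5 intervals overlapped, and the highest cluster exceeded the lowest 1.57 times (0.919 to 2.80). Where ENR+CD cells were clustered alone, into 10 clusters of 50 or more cells, Gm12524 was called as well.

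**Figure D3:**
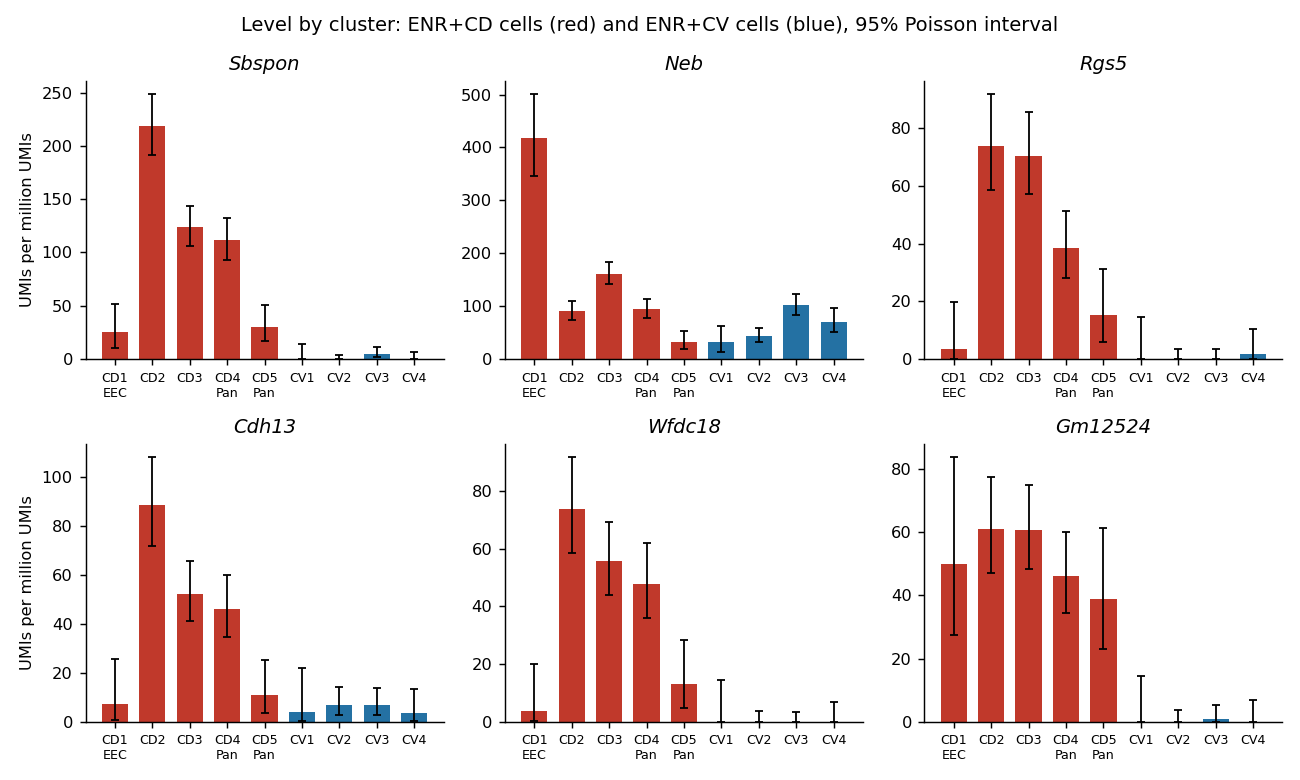
Level of each gene (CPM) in the ENR+CD cells of ENR+CD clusters 1 to 5 (CD1 to CD5, red) and the ENR+CV cells of ENR+CV clusters 1 to 4 (CV1 to CV4, blue), with 95% Poisson intervals as error bars. EEC and Pan mark EEC-like and PC-like clusters. Neb peaks in CD1 at 418 CPM and is present in all ENR+CV clusters, Sbspon, Rgs5, Cdh13 and Wfdc18 peak in CD2, and Gm12524 stays between 38.9 and 60.9 CPM in ENR+CD.

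The low level in cluster 5 stood beside a high share of UMIs on PC genes, 49.6% in its ENR+CD cells against 4.90% in cluster 2. In CPM of the UMIs outside PC and defensin genes, Sbspon stood at 59.97 in cluster 5 (32.8 to 101) against 230 in cluster 2 (202 to 261), and Cdh13 at 21.4 (6.95 to 49.98) against 93.1 (75.4 to 114). Both remained lower in cluster 5. Wfdc18 did as well, at 25.7 (9.43 to 55.9) against 77.6 (61.6 to 96.6). Rgs5 was then highest in cluster 3 (85.3, 69.4 to 104). Its cluster 5 (29.99, 12.1 to 61.8) just overlapped cluster 2 (77.6, 61.6 to 96.6). Neb in cluster 5 (64.3, 36.0 to 106) then overlapped cluster 2 (95.1, 77.2 to 116), and Gm12524 was 77.1 (45.7 to 122) against 64.0 (49.5 to 81.5).

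Quartile groups of the 2383 ENR+CD cells by their share of UMIs on marker lists gave levels without clusters. From the group with the lowest to that with the highest share of EEC markers, Neb went from 49.999 (38.8 to 63.4) to 105, 158 and 216 CPM (190 to 246). For the other 5 genes the intervals of the lowest and highest EEC groups overlapped, as for Rgs5 at 48.5 (37.5 to 61.7) and 56.8 CPM (43.6 to 72.9). Along EEC markers only the Neb order seen over clusters was thus met again. Along PC markers every gene but Gm12524 fell from the lowest to the highest group, with separate intervals. Rgs5 went from 70.9 (57.4 to 86.7) to 24.9 CPM (16.7 to 35.7), Neb from 175 to 61.7 and Sbspon from 162 to 73.7. Cdh13 went from 62.7 to 30.9 CPM and Wfdc18 from 56.0 to 29.2. In CPM of the UMIs outside PC genes the falls were smaller, from 72.9 to 41.5 for Rgs5, 179 to 103 for Neb and 166 to 123 for Sbspon. Cdh13 then went from 64.4 to 51.5 and Wfdc18 from 57.5 to 48.6. No intervals were computed for quartile levels outside PC genes, so whether these smaller falls pass counting error was not tested. Gm12524 was 59.7 (47.3 to 74.3) and 48.9 CPM (37.0 to 63.3) in these groups, with intervals that overlapped. Outside PC genes it went up instead, from 61.4 to 81.6 CPM, again without intervals.

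The order of Neb along Wnt targets turned on Mmp7, which is also a PC gene and held 71.5% of the UMIs on the Wnt target list in ENR+CD. With Mmp7 left out, a choice made after seeing the data, Neb went up from 98.3 (80.9 to 118) in the lowest to 155 CPM (133 to 180) in the highest group, and from 135 to 178 in CPM of the UMIs outside PC genes. With Mmp7 kept in, Neb went down from 176 (153 to 202) to 68.3 CPM (53.8 to 85.4), the opposite direction. Without Mmp7, Sbspon went from 91.2 (74.5 to 111) to 188 CPM (163 to 215) and Cdh13 from 29.8 (20.7 to 41.7) to 82.1 CPM (66.1 to 101). Rgs5 went from 28.9 (19.9 to 40.7) to 59.5 CPM (46.0 to 75.7), while with Mmp7 kept in it was 44.3 (33.1 to 58.1) and 35.0 CPM (24.9 to 47.9). Wfdc18, at 32.5 (22.9 to 44.7) and 52.3 CPM (39.7 to 67.6), and Gm12524, at 57.0 (44.0 to 72.7) and 54.1 CPM (41.3 to 69.6), had intervals that overlapped. Sbspon and Cdh13 went up with Mmp7 kept in as well, with separate intervals. Sbspon then went from 77.5 (62.4 to 95.2) to 142 CPM (121 to 166) and Cdh13 from 24.7 (16.5 to 35.5) to 68.3 CPM (53.8 to 85.4).

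**Figure D4:**
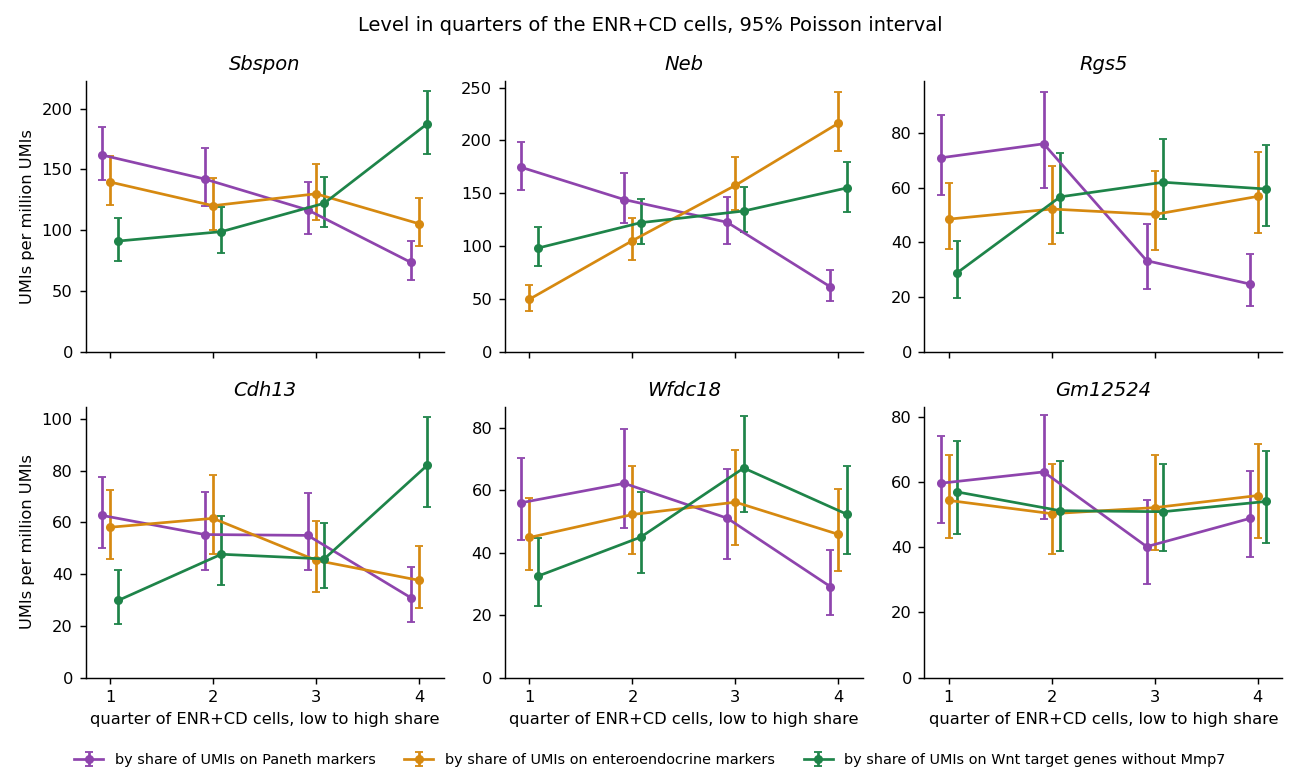
Level of each gene (CPM) in quartile groups of the ENR+CD cells, ordered from low to high share of UMIs on PC markers (purple), EEC markers (orange) or Wnt target genes without Mmp7 (green), with 95% Poisson intervals. Neb climbs with EEC markers to 216 CPM, Sbspon and Cdh13 are highest in the top Wnt group at 188 and 82.1 CPM, and Gm12524 stays between 40.2 and 63.2 CPM.

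In single cells the genes were mostly met alone. After thinning, 768 of 2383 ENR+CD cells (32.2%, 30.4 to 34.1) held at least 1 of the 6 genes, against 62 of 985 in ENR+CV (6.29%, 4.86 to 7.997) and 9 of 2545 in ENR (0.354%, 0.162 to 0.670). Unthinned shares were 45.7%, 11.5% and 0.511%. Of the ENR+CD cells 5.33% held 2 or more after thinning and 12.6% before, with at most 4 and 5 of the genes in a cell. Without Gm12524 the thinned ENR+CD share was 28.9% (27.1 to 30.8).

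Sbspon was found more often in cells with Cdh13 than in cells without it. Of 113 thinned ENR+CD cells with Cdh13, 31 also held Sbspon (27.4%, 19.5 to 36.6), against 10.2% (8.96 to 11.5) of the cells without Cdh13. The gap also stood within cluster 2, at 14 of 37 (37.8%, 22.5 to 55.2) against 16.1% (13.0 to 19.5), and within cluster 3, at 10 of 37 (27.0%, 13.8 to 44.1) against 10.4% (8.16 to 13.1). In cluster 4 the shares were 7 of 38 (18.4%, 7.74 to 34.3) and 9.17% (7.23 to 11.4), with intervals that overlapped. Neb went the other way, as 7.42% of its carriers held Sbspon (4.38 to 11.6) against 11.4% of other cells (10.1 to 12.8), again with overlap.

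Barcodes under 1000 UMIs and cells that lack a gene were read beside the kept cells. In ENR+CD 5493 barcodes with 2957639 UMIs lay under this limit, and shallow cells and free RNA among them were not told apart. In the ENR+CD table such barcodes held 5 of the listed genes at levels near those of the cells: Sbspon at 120 CPM, Rgs5 at 56.8, Cdh13 at 55.4, Wfdc18 at 50.04 and Gm12524 at 57.8. Neb was higher there, at 165 CPM (150 to 180), than in the cells (127, 117 to 138). Of the 92 EEC-like cells of ENR+CD, thinned in the same way, 0 held Rgs5 and 0 held Wfdc18 (upper limit 3.93% of cells with a UMI), beside 4.07% (3.31 to 4.94) and 4.03% (3.28 to 4.90) of all ENR+CD cells, so the intervals overlapped. Before thinning 1 of the 92 cells held each gene (1.09%), beside 6.21% and 6.71%, at a median of 2523 UMIs per cell of that cluster against 1543 in the library. Gm12524 was found in 14 of the 92 cells before thinning (15.2%, 8.58 to 24.2). The part of free RNA in the levels of the cells was not tested.

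The few ENR UMIs of the listed genes made 14 cell entries, 9 of them with 1 read. Of these entries, 0 lay in a cell whose barcode was also among the merged ENR+CD cells. Kept ENR and ENR+CD cells shared only 1 barcode, so this could hardly have come out otherwise, and nothing is read from it. The ENR entries with most reads were of Cdh13, with 32 reads on 1 UMI in ENR cluster 1, and of Neb, with 21 reads on 1 UMI in the enterocyte-like ENR cluster 4. The Sbspon entry and 1 of Neb, with 1 read each, lay in ENR cells of ENR+CD cluster 2, which held 2 ENR cells.

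Over the 15 clusters, which share libraries and depth, the pattern of each gene was set against 9710 others of 100 or more UMIs by Pearson correlation of log2(CPM + 10), as a description. Nearest to Sbspon were Wfdc18 (r = 0.980), Notum (0.974) and Wnt6 (0.972), a Wnt ligand. Rgs5 lay nearest to Notum (0.981), Wnt6 (0.977) and Wfdc18 (0.969), and Cdh13 to Wnt6 (0.986), Notum (0.979) and Rgs5 (0.9499). Wfdc18 lay nearest to Sbspon (0.980), Ecscr (0.974) and Rgs5 (0.969). Neb stood apart, nearest to Prox1 (0.947), a homeobox factor, Lamp2 (0.931) and Pld3 (0.925), which encode lysosomal proteins, and at 0.48 to 0.62 with the other listed genes. The latter had 0.85 to 0.98 among themselves, which the choice of genes near 0 in ENR and high in ENR+CD largely sets, and Gm12524, with no call between ENR+CD clusters, had 0.85 to 0.93. Gm12524 lay near Cfi (0.943) and Sbspon (0.933).

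Between the media with CHIR99021, 5 of the 6 genes were called higher in ENR+CD against ENR+CV and none lower, where 7.1% of the 12099 genes tested were called higher and 18.9% lower. The genes had been chosen as high in ENR+CD, which this contrast shares. Neb was the gene not called. ENR+CD and ENR+CV differ in DAPT, in valproic acid and in the library itself, and the part of each in these differences cannot be told apart.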

How the data were processed

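Single-cell RNA of 3 Seq-Well libraries was measured as UMI counts. As deposited, the counts were made by the authors with bcl2fastq, STAR and Seurat on mm10 (versions not given in the sources used here), and the merged table names each cell's library. Every merged cell was identical to a cell of 1 per-sample table, which showed that the attached labels of ENR+CD and ENR+CV are crossed against the merged names, and the merged names were followed. Those per-sample tables also gave reads and barcodes under 1000 UMIs. Other columns of per-sample values numbered 0.

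The listed genes and all gene lists were chosen with earlier results of these data known. Cells with at least 1000 and fewer than 8000 UMIs and with 400 or more genes were kept. UMIs were summed per library over all 23271 genes and given as CPM with exact Poisson 95% intervals, and ratios with exact binomial intervals. With 1 library per medium there was no test, and intervals and limits from 0 UMIs (set at 3) cover counting error only. Shares of cells have Clopper-Pearson intervals, after thinning to 1000 UMIs (seed 11) where stated. Clusters used Seurat 5.3.0 in R 4.3.3 (log-normalised counts, 12 principal components, 30 neighbours, resolution 1.35). No doublets were called or removed beyond the upper UMI limit. Counts were summed in Python 3.11.15 with pandas 2.3.3 and NumPy 2.4.6, intervals came from SciPy 1.17.1 and shared stretches from BLAST+ 2.17.0, and calls and intervals were tested on simulated data. Positions are from GENCODE vM21 on GRCm38, which held 21756 of the 23271 symbols.

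Genes named beside the listed ones are their nearest neighbours in the table, relatives, the 3 most alike over clusters, those next to the ratio of 80, and leading genes of the lists. A gene that this rule names is not reported here. Muscle and pericyte markers, the other genes past the ratio of 80, and relatives were named after their values were seen. Alternatives changed the cell filter, total, scaling, minimum, fold, reads, clustering, thinning and library names.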

Additional observations from a re-analysis of the deposited data

How the results depend on the processing

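Of the alternative values for the counts of genes called, the cluster count and the share of cells, 41 stayed within 1.5 times the reported count or within its interval, and 11 moved. Of those of single ratios, 171 stayed, 14 moved and 5 reversed. With library names as the per-sample tables are attached, 2 genes were higher in ENR+CD against ENR, 6 in ENR+CV against ENR, and 0 in ENR+CD against ENR+CV, and the ratio of ENR+CD over ENR+CV reversed to 0.0136 for Sbspon, 0.0197 for Rgs5, 0.113 for Cdh13, 0.0207 for Wfdc18 and 0.0191 for Gm12524, as an exchange of names must do. The count of genes higher in ENR+CV against ENR was 1 (Neb) with cells of 2000 or more UMIs, with entries of at least 2 reads per UMI, with a minimum of 50 UMIs, and without the 10 cells with most UMIs of the listed genes. In each of these Cdh13 fell under the minimum of UMIs. The share of ENR+CD cells with any listed gene was 45.7% with no thinning, 48.2% in 703 cells thinned to 2000 UMIs, 27.2% with entries of at least 2 reads per UMI, and 28.9% for the 5 genes other than Gm12524, an alternative chosen after seeing the data. No paired analysis was possible because each medium had 1 library. Medium, array and culture cannot be told apart, and 0 UMIs allow up to 0.589, 0.661 and 1.02 CPM for ENR, ENR+CD and ENR+CV respectively.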
